A study of Mus musculus with 8 samples.

Results

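Iron handling was examined through 9 mouse genes: Tfrc, Steap3 and Slc11a2 (uptake from transferrin), Slc25a37 (import into mitochondria), Fth1 and Ftl1 (storage), Slc40a1 (export), and Aco1 and Ireb2 (the iron regulatory proteins). They were chosen by name for these roles, and all 9 were found among the 52636 genes of the count table. The RNAseq compared 4 WT and 4 DKO libraries of S0 cells from fetal livers at E12.5 on a C57BL/6J background. S0 cells are negative or low for CD71 and Ter119, and cells bearing markers of lymphoid or mature myeloid lineages had been removed by FACS, as had dead cells. WT embryos carried both genes intact. DKO embryos lacked Vps13a (an allele without exon 6, produced through FLP and β-actin-Cre) and Vps13c in every tissue. The DKO embryos came from intercrosses in which all parents lacked Vps13c, a cross that gives no WT embryo, so litter and genotype cannot be told apart. The sources used here do not state that each library is 1 embryo, so p-values measure the spread between these libraries, which may be partly technical.

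Erythroid cells take up most of their iron as transferrin bound to the transferrin receptor, encoded by Tfrc. In the endosome the ferrireductase Steap3 reduces the iron, the transporter encoded by Slc11a2 (DMT1) moves it to the cytosol, and mitoferrin 1, encoded by Slc25a37, carries it into mitochondria for heme and iron-sulfur clusters. Surplus iron is stored in ferritin, a shell of Fth1 and Ftl1 chains, or leaves through ferroportin, encoded by Slc40a1. When iron is scarce, the iron regulatory proteins bind iron responsive elements, which are hairpins in the untranslated regions (UTRs) of these mRNAs. In a 5′ UTR the bound protein blocks translation, and in the 3′ UTR of Tfrc it stabilises the mRNA.

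The elements are shown because they divide the genes into those with a 5′ and those with a 3′ hairpin. The GENCODE UTRs (GRCm38, the same build as mm10) were searched on the transcribed strand for a C, 5 bases of any kind, CAGTG and 1 more base, with 5 bases on each side of the loop able to pair. The capitals mark the loop of 6 bases. Fth1, Ftl1 and Slc40a1 each had 1 match in the 5′ UTR and Tfrc had 4 in the 3′ UTR.
Fth1, 5′ UTR, chr19:9982732-9982760, plus strand: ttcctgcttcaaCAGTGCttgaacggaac
Ftl1, 5′ UTR, chr7:45459779-45459807, minus strand: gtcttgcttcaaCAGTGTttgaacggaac
Slc40a1, 5′ UTR, chr1:45925465-45925493, minus strand: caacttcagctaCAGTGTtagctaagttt
Tfrc, 3′ UTR, chr16:32631219-32631247, plus strand: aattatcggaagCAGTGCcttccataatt
Tfrc, 3′ UTR, chr16:32631598-32631626, plus strand: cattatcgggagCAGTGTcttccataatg
Tfrc, 3′ UTR, chr16:32631663-32631691, plus strand: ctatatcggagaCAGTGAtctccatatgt
Tfrc, 3′ UTR, chr16:32631710-32631738, plus strand: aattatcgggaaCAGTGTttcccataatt
Among all genes with an annotated 5′ UTR 0.146% held a match there, and among those with a 3′ UTR 0.679% did. The letters were not found in the UTRs of Steap3, Slc11a2, Slc25a37, Aco1 or Ireb2, which says nothing of elements of another form.

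The counts summed to 42114489 to 50886469 per WT library and to 36981439 to 42587815 per DKO library, and 17378 genes passed the filter on low counts, all 9 iron genes among them. Vps13a was lower in DKO (1943 ± 130 against 794 ± 194 normalized counts, SD, n = 4 per genotype, log2 fold change -1.29, edgeR adjusted p = 0.00247). Vps13c had 583 ± 74.9 (WT) and 816 ± 279 (DKO) normalized counts (edgeR adjusted p = 0.182), so its level did not check the labels. DKO replicate 3 had Y-linked transcripts, as did all 4 WT libraries, whereas the other 3 DKO libraries had Xist, so that most libraries of the genotypes differed in sex. The erythroid factors Klf1 (9622 to 17171) and Gata1 (6649 to 10502) were high in all 8 libraries. Other erythroid markers were low or uneven, such as Slc4a1 (308 to 1515 in WT and 10.5 to 1465 in DKO). The 19 erythroid markers found summed to 69027 to 78502 in WT and 65596 to 101122 in DKO. Of these, 5 were called higher (26.3% against 10.7% of all genes) and 0 lower. The libraries were not only erythroid. The 16 hepatoblast markers summed to 558738 to 769442 normalized counts in WT and to 186254 to 669550 in DKO, lowest in DKO replicate 3. Of these 16, 0 were called, against 21.6% of all genes, but only 1 had a log2 fold change above 0. Their median log2 fold change was -0.745, against 0.03 over all genes tested. The 12 mesenchymal markers summed to 2354 to 6271 in WT and 13749 to 50730 in DKO, highest in DKO replicate 1. Of these, 11 of 12 were called higher (91.7% against 10.7% of all genes) and 0 lower. The 16 macrophage markers summed to 5138 to 7708 in WT and 1504 to 4577 in DKO, lowest in DKO replicate 3. Of the 12 tested, 1 was called lower (Adgre1, 8.33% against 10.8% of all genes) and 0 higher. Cd163 was at 0 in every library. The 12 neutrophil and myeloid markers summed to 103853 to 135356 in WT and 5399 to 45776 in DKO. Of the 9 tested, 5 were called lower (55.6% against 10.8% of all genes) and 0 higher. The 12 stem and progenitor markers summed to 38023 to 50639 in WT and 19596 to 26422 in DKO, with 4 called lower (33.3%) and 0 higher. Macrophages and hepatocytes also handle iron, and what these cells contributed to the iron genes was not tested. In such bulk samples fewer cells of a type and less RNA per cell cannot be told apart.

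Of the 9 iron genes, the ferritin heavy chain Fth1 was the only one called different, at 1.44-fold higher in DKO. Values are normalized counts, which are counts scaled to a common effective library size, and a gene was called at an adjusted p under 0.05 in edgeR's quasi-likelihood test over all genes tested. Thus 1 of 9 was called higher, against 10.7% of all genes, and 0 of 9 lower, against 10.8%. In either direction 21.6% of all genes were called. Groups did not overlap for Fth1, with DKO above (1 of 9, against 13.5% of all genes), nor for Aco1, with DKO below (1 of 9, against 14.6%). These shares are near or under those of all genes. The median log2 fold change of the 9 was 0.01, against 0.03 over all genes tested.

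**Figure D1:**
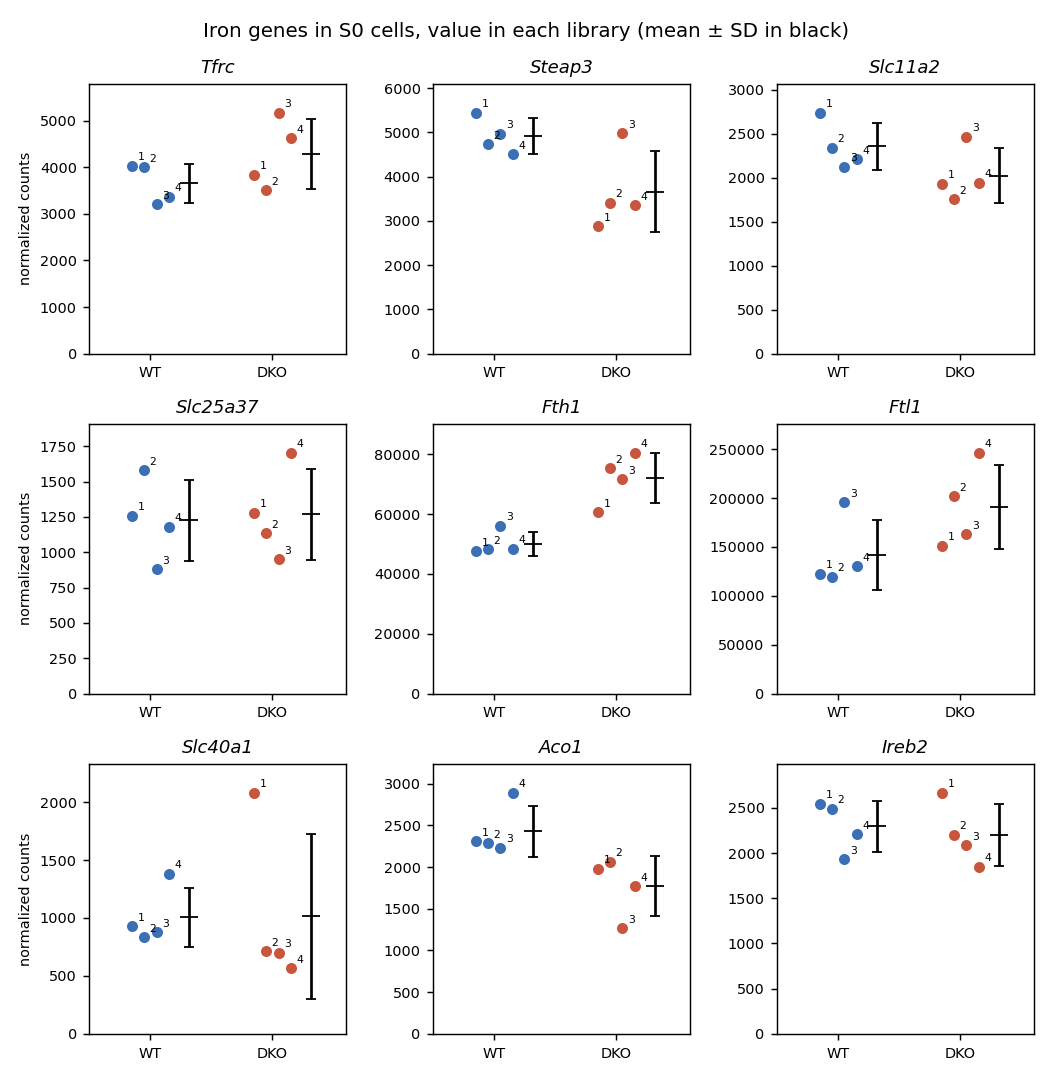
Normalized counts (vertical axes, from 0) of the 9 iron genes in the 4 WT (blue) and 4 DKO (red) libraries, numbered by replicate, with mean and SD in black. Fth1 lies at 47518 to 56051 in WT and 60641 to 80471 in DKO, and Aco1 is the other gene whose groups do not overlap.

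Fth1 (chr19:9980598-9985098, plus strand) encodes the ferritin chain that oxidises iron for storage. Its normalized counts were 47518, 48279.7, 56051 and 48402 in WT replicates 1 to 4 and 60641, 75225, 71664 and 80471 in DKO replicates 1 to 4. Every DKO library lay above every WT library. The means were 50063 ± 4011 in WT and 72000 ± 8392 in DKO (SD, n = 4 per genotype), a log2 fold change of 0.52 (SE 0.10, 95% interval 0.30 to 0.75, edgeR adjusted p = 0.00854). The exact two-sided permutation p was 0.0286, the smallest that 4 against 4 libraries allow. Leaving out any 1 library gave log2 fold changes of 0.47 to 0.60, with Fth1 called in 8 of 8 such fits. Fth1 lies on the chromosome of Vps13a, 6.63 Mb away.

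Ftl1 (chr7:45457944-45459884, minus strand) encodes the light chain, which helps form the iron core. Its normalized counts were 122764, 119506, 195552 and 130085 in WT and 151098, 201973, 163330 and 246380 in DKO. The groups overlapped because WT replicate 3 exceeded DKO replicates 1 and 3, while the other 3 WT libraries lay below all DKO libraries. The means were 141976 ± 35990 and 190695 ± 42992 (SD, n = 4 per genotype), 1.34-fold higher in DKO, with a log2 fold change of 0.43 (SE 0.20, 95% interval -0.01 to 0.86, edgeR adjusted p = 0.148). Without WT replicate 3 the log2 fold change was 0.61 and the edgeR adjusted p was 0.0396. Ftl1 shares 355 exon bases with Gm10252 on the opposite strand and 109 with the miRNA gene Gm22133. Whether strand was used in counting is not given in the sources used here.

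Both ferritin genes have annotated copies, taken here as other genes with a symbol starting Fth or Ftl. Alignments with a mapping quality under 20 had been removed, so reads fitting a gene and a copy equally well may be missing from both. The counts of the copies cannot show such reads. The 3 annotated Ftl copies held 0.491% to 0.681% of the counts of Ftl1 plus copies in any library, Ftl1-ps1 most of them (671 ± 201 normalized counts in WT libraries, against 975 ± 238 in DKO). The 11 Fth copies, 9 of them of the Fthl17 family and at 0 in every library, held at most 0.045%. Within a library, the ratio of Ftl1 to Fth1 does not depend on scaling. Its log2 was 1.48 ± 0.22 in WT and 1.39 ± 0.18 in DKO, a difference of -0.09 (SD, n = 4 per genotype, exact permutation p = 0.6, adjusted over 3 ratios 0.6).

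The ferritin mRNAs are short, and short mRNAs were called higher in DKO more often than long ones. For protein-coding genes with a typical transcript under 1 kb (1178 genes) the median of the log2 fold changes was 0.24, with 28.1% called higher and 3.9% called lower. For those of 2 to 4 kb (5919 genes) the median was -0.10, with 8.6% called higher and 17.6% lower. Fth1 has a typical transcript of 929 bases and Ftl1 one of 735.5 bases. After a loess correction for GC content and transcript length, added after the data were seen, the log2 fold change of Fth1 was 0.30 (edgeR adjusted p = 0.0409) and that of Ftl1 was 0.01 (edgeR adjusted p = 0.967).

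**Figure D2:**
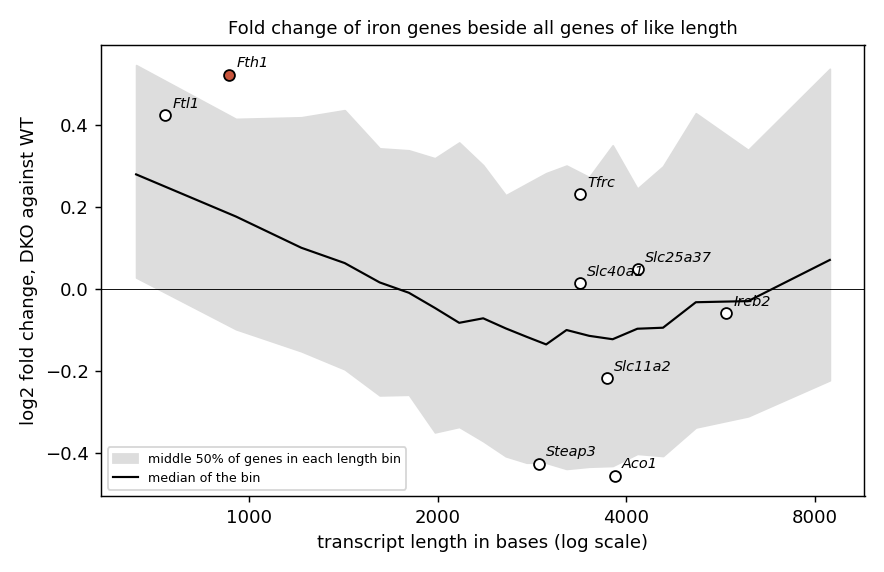
Log2 fold change of DKO against WT (vertical axis) by typical transcript length in bases (horizontal axis, log scale), with the median (line) and middle 50% (grey) of protein-coding genes in 20 bins of length and the iron genes as points, red where called. Fth1 lies above the grey band, Ftl1 within it, and both belong to the short genes, whose median is above 0.

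The 5 genes whose centred log2 levels over the 8 libraries were nearest to those of Fth1 were Bola1, Pam16, Ndufc1, Uqcr11 and Rps18, with root mean square differences of 0.0561 to 0.0682. Their log2 fold changes were 0.43 to 0.53, near that of Fth1 because the genes were chosen for likeness in these same libraries. Their typical transcripts were 445 to 782 bases long.

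Tfrc (chr16:32608920-32632794, plus strand) had normalized counts of 4039, 4000.2, 3215 and 3369 in WT and 3844, 3516, 5180.2 and 4632 in DKO. DKO replicates 3 and 4 lay above all WT libraries and the other DKO libraries within the WT range. The means were 3656 ± 425 and 4293 ± 754 (SD, n = 4 per genotype), a log2 fold change of 0.23 (SE 0.14, 95% interval -0.07 to 0.54, edgeR adjusted p = 0.253). CD71, which gated the S0 cells, is the protein that Tfrc encodes, so the gate limits cells with much of it at the surface in both genotypes.

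Steap3 (chr1:120190757-120272705, minus strand) had normalized counts of 5445, 4727, 4969.9 and 4503 in WT and 2880.0, 3408, 4981 and 3346 in DKO. DKO replicate 3 lay within the WT range and the other DKO libraries below it. DKO replicate 3 was also the DKO library with Y-linked transcripts like WT and had the lowest hepatoblast and macrophage marker sums. The parts of sex and of these cells in Steap3 were not tested. The means were 4911 ± 404 and 3654 ± 916 (SD, n = 4 per genotype), a log2 fold change of -0.43 (95% interval -0.78 to -0.07), which was not called (edgeR adjusted p = 0.0811). With DKO replicate 3 left out it was -0.61 (edgeR adjusted p = 0.0073), for that library alone against WT it was 0.00, and DESeq2 with all libraries gave an adjusted p of 0.0447. Leaving out other libraries brought the log2 fold change no nearer to 0 than -0.33.

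Slc11a2 (chr15:100387898-100425072, minus strand) had normalized counts of 2742, 2344, 2127 and 2210.1 in WT and 1933, 1755, 2467 and 1946 in DKO. As for Steap3, DKO replicate 3 lay within the WT range and the other 3 below it. The parts of sex and of hepatoblasts and macrophages were not tested. The log2 fold change was -0.22 (SE 0.13, 95% interval -0.50 to 0.07, edgeR adjusted p = 0.252), and it was called in none of the 18 alternative fits. The gene shares 402 exon bases with Gm5475 on the opposite strand.

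Slc25a37 (chr14:69241848-69285112, minus strand) had normalized counts of 1259.8, 1582, 882 and 1180.2 in WT and 1279.8, 1136, 949.9 and 1704 in DKO. The groups were intermingled, with a log2 fold change of 0.05 (95% interval -0.43 to 0.53, edgeR adjusted p = 0.898), so changes within this interval were not excluded with these replicates. Opposite-strand genes share 381 (Gm31748) and 92 (Gm27223) of its exon bases.

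Slc40a1 (chr1:45908068-45926523, minus strand) had normalized counts of 929, 834, 875 and 1382 in WT and 2079, 713, 699.6 and 568 in DKO. DKO replicate 1 lay above all WT libraries and the other 3 DKO libraries below all of them. The means were 1005 ± 254 and 1015 ± 713 (SD, n = 4 per genotype), a log2 fold change of 0.01 (95% interval -0.87 to 0.90, edgeR adjusted p = 0.983). With DKO replicate 1 left out it was -0.60 (edgeR adjusted p = 0.053). This library also had the highest mesenchymal marker sum, and the part of those cells in its Slc40a1 level was not tested.

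Aco1 (chr4:40143081-40198338, plus strand) encodes iron regulatory protein 1, which works as cytosolic aconitase while it holds an iron-sulfur cluster. Its normalized counts were 2310.1, 2286, 2230.0 and 2888.5 in WT and 1982, 2062, 1266 and 1770.0 in DKO. Every DKO library lay below every WT library, DKO replicate 3 the lowest. DKO replicate 3 also had Y-linked transcripts and the lowest hepatoblast and macrophage marker sums. The parts of sex and of these cells in Aco1 were not tested. The means were 2429 ± 308 and 1770 ± 358 (SD, n = 4 per genotype), 0.729 of the WT level, with a log2 fold change of -0.46 (SE 0.16, 95% interval -0.81 to -0.10). The edgeR adjusted p was 0.0677, above the threshold, and the exact permutation p was 0.0286. Leaving out any 1 library gave log2 fold changes of -0.54 to -0.32, with Aco1 called in 0 of 8 such fits. DESeq2 called it (adjusted p = 0.0357), and so did edgeR after the GC and length correction (adjusted p = 0.0366).

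Ireb2 (chr9:54863789-54912530, plus strand) encodes iron regulatory protein 2, which is degraded when iron is plentiful. Its normalized counts were 2545, 2493, 1934 and 2209 in WT and 2667, 2205, 2089 and 1849 in DKO. The groups were intermingled, with a log2 fold change of -0.06 (95% interval -0.36 to 0.24, edgeR adjusted p = 0.788). Ireb2 lies on the chromosome of Vps13c, 12.9 Mb away. The log2 ratio of Aco1 to Ireb2 within a library was 0.08 ± 0.26 in WT and -0.33 ± 0.31 in DKO (SD, n = 4 per genotype, exact permutation p = 0.171, adjusted over 3 ratios 0.3). That of Tfrc to Fth1, which carry elements in opposite UTRs, was -3.78 ± 0.26 and -4.08 ± 0.26, a difference of -0.30 (SD, n = 4 per genotype, exact permutation p = 0.2, adjusted 0.3).

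**Figure D3:**
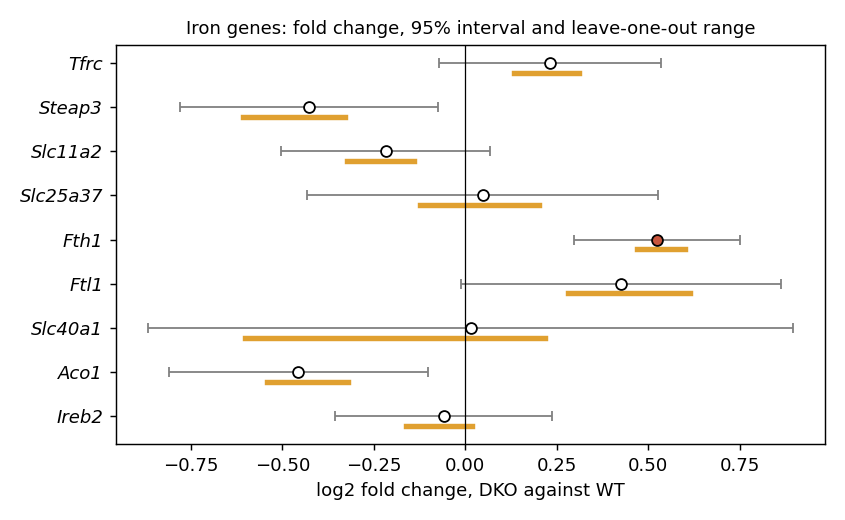
Log2 fold change of DKO against WT (horizontal axis) of the 9 iron genes, with 95% intervals (grey), the range over fits leaving out 1 library (orange bars) and a filled point where called. The interval of Fth1 runs from 0.30 to 0.75, those of Steap3 and Aco1 lie below 0 although neither was called, and that of Slc40a1 is the widest.

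Levels of the genes were compared as normalized counts per kilobase of exon. In WT the order was Ftl1 (mean 105953), Fth1 (14431), Steap3 (859), Tfrc (591), Aco1 (540.2), Slc11a2 (371), Ireb2 (242), Slc25a37 (204) and Slc40a1 (112). The WT ranges of Tfrc and Aco1 overlapped, as did those of Ireb2 and Slc25a37 and of Slc25a37 and Slc40a1, so that these neighbours did not differ beyond their spread. In DKO Tfrc (694) stood above Steap3 (639), again with overlapping ranges. From Aco1 (394) down to Slc40a1 (113), all DKO neighbours in the order overlapped. Fth1 was above 99.1% of genes tested in WT and 99.3% in DKO on this scale. With the longest transcript as the length, Slc40a1 and Slc25a37 changed places. The exon length used was 3469 bases for Fth1 and 1340 for Ftl1, against typical transcripts of 929 and 735.5 bases. The size of the gap between these genes, and between others, thus depends on the length chosen.

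Of the iron genes with a 5′ hairpin, Fth1 was called higher and Ftl1 and Slc40a1 were not called. Alas2, the erythroid enzyme that starts heme synthesis, was at 515 ± 289 and 462 ± 235 (edgeR adjusted p = 0.866). Tfrc, with 3′ hairpins, was not called. RNA levels do not show translation, the step that a 5′ hairpin controls. The match in Alas2, shown for comparison with those above, was this.
Alas2, 5′ UTR, X chromosome, plus strand, across a splice junction: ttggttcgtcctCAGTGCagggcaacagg

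Among 70 further genes of iron handling, the only one called lower by more than 1 on the log2 scale was Ncoa4, the receptor that carries ferritin to lysosomes to free its iron. Of the 70, 65 were tested, of which 13 were called higher (20% against 10.7% of all genes) and 9 lower (13.8% against 10.8%), with a median log2 fold change of 0.02. Beyond a log2 fold change of 1 in size, 4 were called higher (6.19% of all genes) and 1 lower (2.43% of all genes). After the GC and length correction, 12 of these 22 calls remained, 7 higher and 5 lower.

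Ncoa4 had normalized counts of 3218, 2856, 2112 and 3041 in WT and 951, 1119, 1454 and 1317 in DKO. The highest DKO library lay well below the lowest WT library. The means were 2807 ± 486 and 1210 ± 221 (SD, n = 4 per genotype), a log2 fold change of -1.21 (SE 0.17, edgeR adjusted p = 0.00291). It was called in all 18 alternative fits, with log2 fold changes of -1.33 to -0.97. Of the other genes of iron chaperoning and ferritin turnover, the chaperone Pcbp2 (10890 ± 304 against 14388 ± 1034, log2 fold change 0.40) and Bola2, a partner of Glrx3 (5902 ± 656 against 9214 ± 1428, 0.64), were called higher. Of the 6 genes of this group, 2 were called higher (33.3% against 10.7% of all genes). Ncoa4 was the 1 called lower (16.7% against 10.8%), and the other 3 were not called. The call of Bola2 was lost after the GC and length correction (edgeR adjusted p = 0.23).

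In mitochondria, 4 of 18 tested genes were called higher (22.2% against 10.7% of all genes) and 3 lower (16.7% against 10.8%). Slc25a28 encodes mitoferrin 2, the more widely expressed relative of mitoferrin 1, and had 274, 423, 347 and 336 normalized counts in WT libraries, against 684, 677, 629 and 737 in DKO. Its log2 fold change was 0.98 (SE 0.17, edgeR adjusted p = 0.00606) with no overlap of the groups, but 0.35 after the GC and length correction (edgeR adjusted p = 0.219).

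Of the factors that build iron-sulfur clusters, the glutaredoxin Glrx5 was higher (2451 ± 251 against 3919 ± 566, log2 fold change 0.68, edgeR adjusted p = 0.0065), as were the ferredoxin Fdx1l (1357 ± 258 against 2567 ± 312, 0.92) and Bola3 (0.36). The mitochondrial transporters Abcb8 (-0.43) and Abcb10 (-0.33), the latter a partner of mitoferrin 1, were called lower. Of 13 tested genes that control the iron regulatory proteins or insert clusters in the cytosol, 2 were called higher and 2 lower (15.4% each way, against 10.7% and 10.8% of all genes). Ciapin1 (4724 ± 277 against 7926 ± 1531, 0.75) and Ciao2b (0.42) were higher and Narfl (-0.33) was lower. Fbxl5, which targets iron regulatory protein 2 for degradation, had 2259.9, 2350.4, 2215 and 2662 normalized counts in WT libraries, against 1928, 1805, 2082 and 1722 in DKO. All DKO values lay below WT, by a log2 fold change of -0.33 (SE 0.10, edgeR adjusted p = 0.0388), and the call was lost when any of WT replicates 1, 2 and 4 and DKO replicates 2 and 4 was left out (log2 fold changes -0.38 to -0.28 over all 8 such fits) and after the GC and length correction (edgeR adjusted p = 0.227). Among the genes named in this paragraph, that correction also took away 5 other calls. The log2 fold changes of Fdx1l (0.41), Ciao2b (0.13) and Bola3 (0.17) were smaller after it, whereas those of Abcb8 (-0.49) and Narfl (-0.40) were slightly larger in size, with edgeR adjusted p of 0.0585 and 0.0509. Of these and Abcb10, all but Fdx1l lost their call without at least 3 of the 8 libraries in turn, WT replicates 1, 2 and 4 each among them, with log2 fold changes that kept their sign (0.30 to 0.44 for Bola3 and -0.38 to -0.29 for Abcb10).

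**Figure D4:**
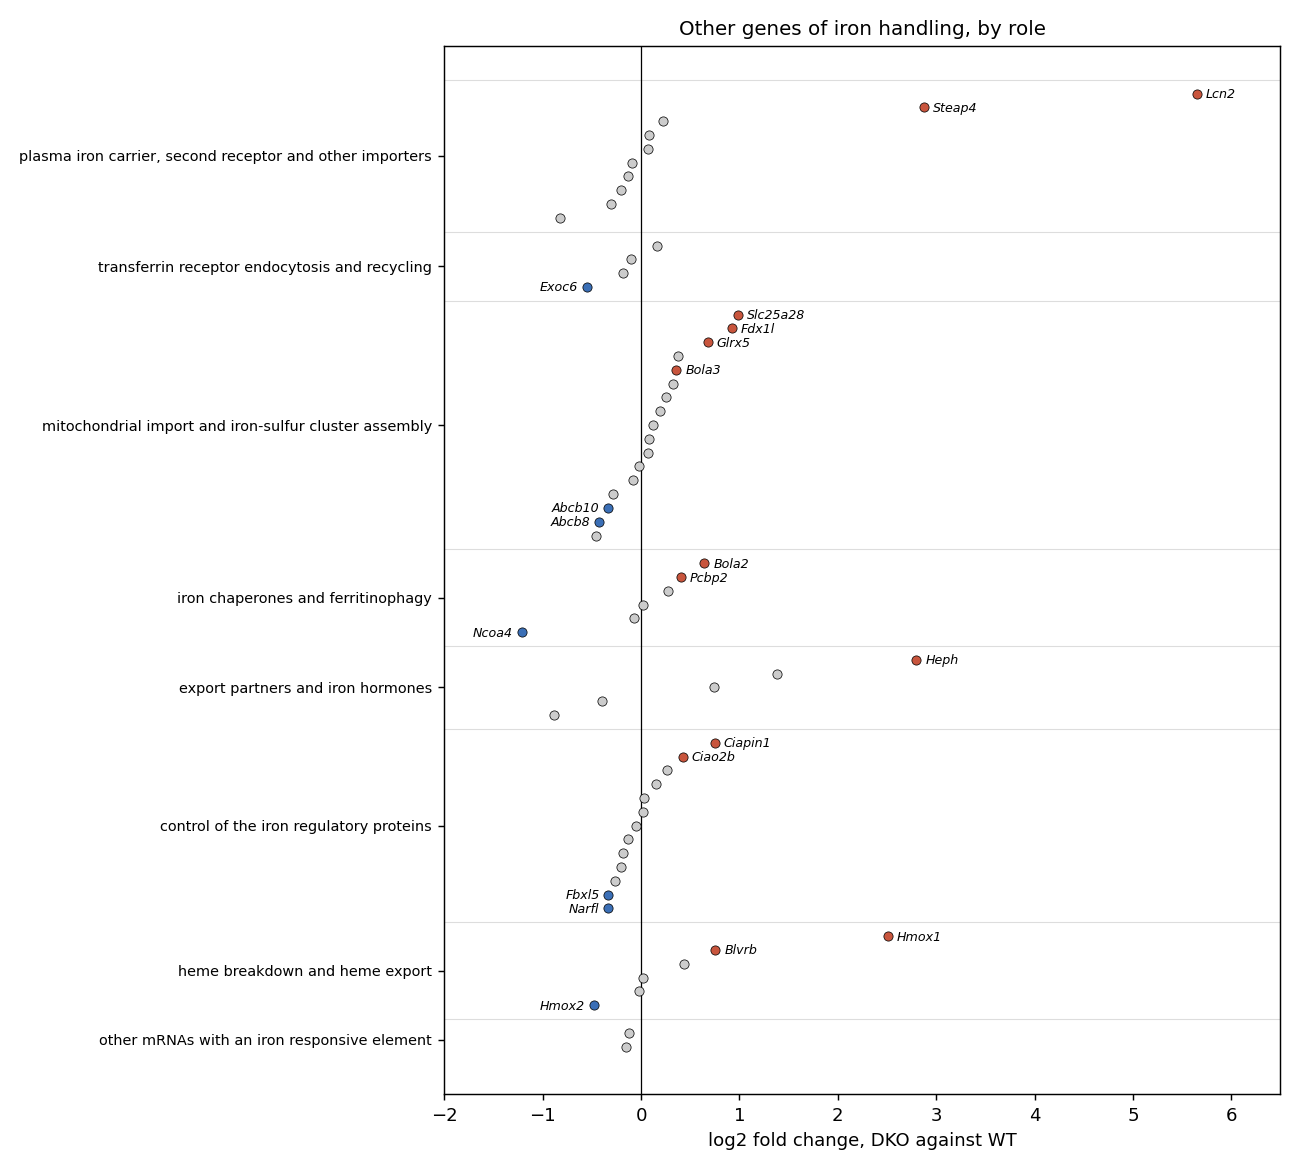
Log2 fold change of DKO against WT (horizontal axis) of further genes of iron handling, grouped by role, with genes called higher in red, those called lower in blue and the others in grey. Ncoa4 is the lowest at -1.21, and Lcn2, Steap4, Heph and Hmox1 lie beyond 2.

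For plasma iron and uptake, 2 of 10 genes were called higher (20% against 10.7% of all genes), both at low WT levels, and 0 lower. Lcn2, which binds iron-laden siderophores, had 2.09, 5.16, 19.98 and 21.9 normalized counts in WT libraries, against 288, 699, 379.7 and 1151 in DKO (log2 fold change 5.65, SE 0.73, edgeR adjusted p = 0.00248). Steap4, a metalloreductase, went from 13.9 ± 11.9 to 103 ± 46.7 (SD, n = 4 per genotype, log2 fold change 2.87, edgeR adjusted p = 0.0476), and is named because only 2 genes of its group were called. Trf, which encodes transferrin and is made by hepatocytes, had 188467, 179977, 241803 and 249398 in WT and 95073, 183742, 37135 and 169018 in DKO. It was not called (log2 fold change -0.83, edgeR adjusted p = 0.171), and DKO replicate 3, with the lowest hepatoblast marker sum, was also lowest in Trf. Tfr2, the second transferrin receptor, was at 2847 ± 264 and 2996 ± 641 (log2 fold change 0.07, edgeR adjusted p = 0.756).

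Of 4 genes of receptor traffic, 1 was called lower (25% against 10.8% of all genes). Exoc6, an exocyst subunit needed for recycling of the transferrin receptor, was called lower (normalized counts of 3665, 2950.2, 2642 and 3811 for WT libraries, 1829, 2055, 2647 and 2366 for DKO). DKO replicate 3, the DKO library with Y-linked transcripts, was just above WT replicate 3, so that the groups overlapped. DKO replicate 3 also had the lowest hepatoblast and macrophage marker sums. The parts of sex and of these cells in Exoc6 were not tested. The log2 fold change was -0.55 (SE 0.15, edgeR adjusted p = 0.0295), and the call was lost without WT replicate 1, 2 or 4 or DKO replicate 2 (log2 fold changes -0.65 to -0.47 over all 8 such fits) and after the GC and length correction (log2 fold change -0.42, edgeR adjusted p = 0.0875).

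The inducible heme oxygenase Hmox1, which frees iron from heme, had 227, 209, 230.2 and 314 normalized counts in WT libraries, against 739, 1947, 265 and 2622 in DKO. DKO replicate 3 lay within the WT range and the other 3 DKO libraries far above it. DKO replicate 3 was also the DKO library with Y-linked transcripts like WT and had the lowest hepatoblast and macrophage marker sums. The parts of sex and of these cells in Hmox1 were not tested. The log2 fold change was 2.51 (SE 0.59, edgeR adjusted p = 0.0172), and for DKO replicate 3 alone against WT it was 0.10 (edgeR adjusted p = 0.858). The call was also lost without WT replicate 1 or without WT replicate 2 (log2 fold changes 2.48 and 2.45). Biliverdin reductase Blvrb was higher (5635 ± 821 against 9516 ± 2029, 0.76, lost after the GC and length correction) and the constitutive Hmox2 lower (4217 ± 73.5 against 3020 ± 576, -0.48), a call lost without any 1 WT library or without DKO replicate 4 (log2 fold changes -0.59 to -0.37 over all 8 such fits). Of 5 tested export partners and hormones, 1 was called higher (20% against 10.7% of all genes), the ferroxidase Heph, from 26.9 ± 15.7 to 188 ± 154 (log2 fold change 2.80, edgeR adjusted p = 0.0203), with its highest value in DKO replicate 1, the library with the highest mesenchymal marker sum. Its call was lost without WT replicate 1 or 4 (log2 fold changes 2.06 to 3.10 over all 8 such fits).

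**Figure D5:**
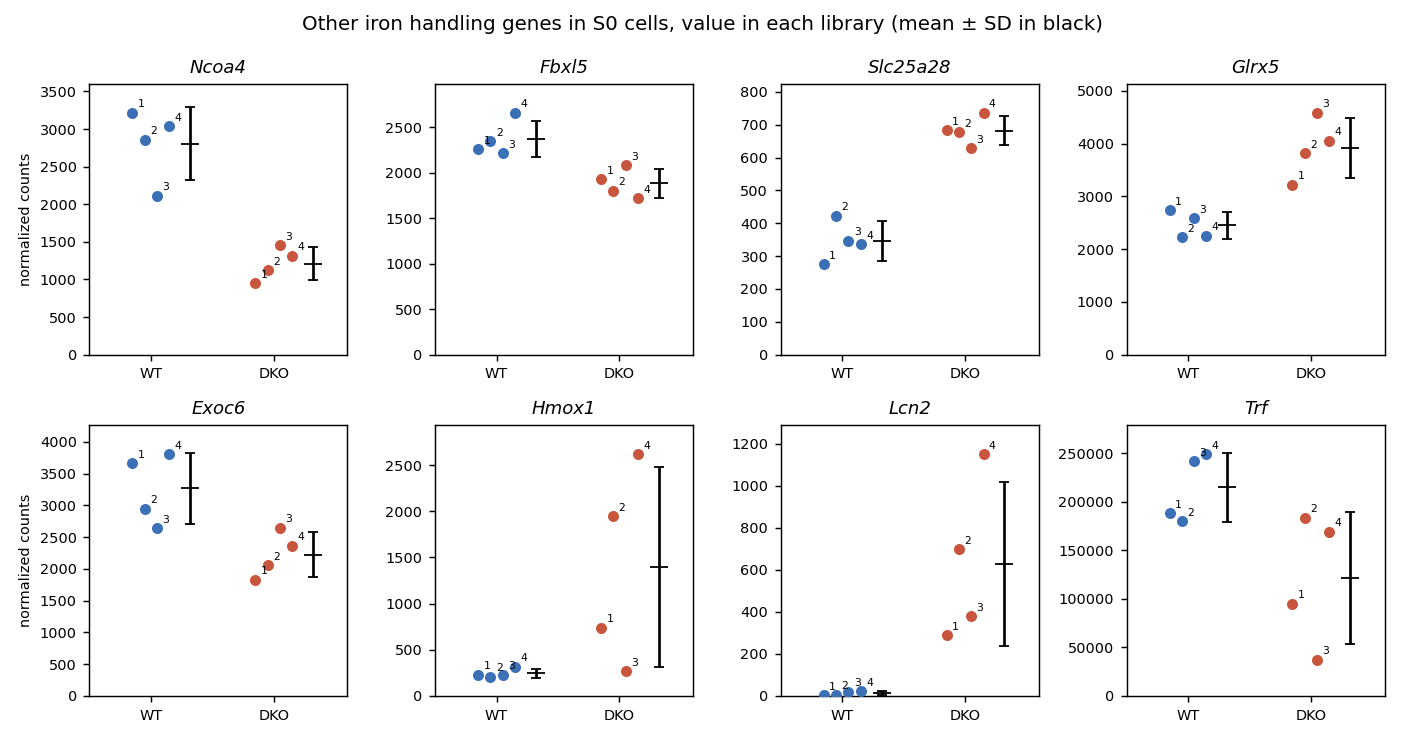
Normalized counts (vertical axes, from 0) of 8 further iron handling genes in the 4 WT (blue) and 4 DKO (red) libraries, numbered by replicate, with mean and SD in black. Ncoa4, Fbxl5, Slc25a28, Glrx5 and Lcn2 have groups that do not overlap, whereas DKO replicate 3 lies within the WT range for Hmox1 and Exoc6.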

How the data were processed

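RNAseq of S0 cells was analysed for 4 WT and 4 DKO libraries, grouped by the sample labels. Per the labels and methods, the authors trimmed reads (fastp 0.21.0), aligned them to mm10 (HISAT2 2.2.1), removed alignments with a mapping quality under 20 and deposited counts per gene (StringTie 1.3.3b with prepDE), whole numbers that were neither normalized nor pooled. Because prepDE derives counts from coverage, totals can differ from read numbers.

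Counts were compared in R 4.3.3 with edgeR 4.0.16 (filterByExpr, TMM, robust quasi-likelihood test, Benjamini-Hochberg adjustment over 17378 genes, no covariate). Standard errors were derived from the F statistic of each gene. Single values were compared by exact two-sided permutation over 70 arrangements. The members and lists were chosen with earlier results of these data known. Named were all 9 genes, up to 12 called genes of the iron list in each direction, and 7 further genes (Trf, Tfr2, Ncoa4, Fbxl5, Slc25a28, Alas2 and Hmox1), the ferritin copies, the targeted genes and the 5 genes most like Fth1. In simulated counts, 166 of 200 changed genes (83%) and 11 of 17401 unchanged genes were called, with 31 of 50 found at a log2 change of 1 in size. The planted log2 changes were 1 to 3 in size, larger than those of the 9 genes. Each gene had the same spread in both genotypes. These shares thus do not show how often changes as small as those of the 9 genes are found. Alternatives were DESeq2 1.42.0, other scalings, other filters, a replicate block, removal of hemoglobin genes, leaving out libraries, ferritin copies added, the longest transcript as length, and a correction for GC content and length. No 2 libraries of a genotype were copies of each other (chi-square per gene at least 18.9). Libraries of a genotype thus differed by more than counting error. Some genes of the list enter its counts but are not reported here.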

Additional observations from a re-analysis of the deposited data

Results flagged for a closer look

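In 4 of 66 groups of libraries examined, 1 library stood apart from the other 3 by Dixon's test at 95%, where chance gives about 1 in 20. Fth1 in WT replicate 3 was 56051 normalized counts, with the nearest WT library at 48402 (gap over range 0.896). Ftl1 in the same library was 195552, with the nearest at 130085 (0.861). Slc40a1 in DKO replicate 1 was 2079, with the nearest at 713 (0.905). Aco1 in WT replicate 4 was 2888.5, with the nearest at 2310.1 (0.878).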

How the results depend on the processing

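Fth1 was called in all 19 alternative fits (log2 fold change 0.30 to 0.64), and no called value changed sign in any alternative run. Upper-quartile scaling moved the median log2 fold change of all genes from 0.03 to 0.14, that of the 9 genes to 0.14 and that of the iron list to 0.13, and left 3 list genes called lower. Its calls over all genes were 2492 higher and 1242 lower, against 1867 and 1878. DESeq2 called 1 of the 9 genes higher and 2 lower, and over all 21232 genes it tested 2744 higher and 2629 lower. The replicate numbers did not pair the libraries (correlations of same-numbered libraries -0.10 to 0.05, with 1 of 8 libraries nearest its own number), and with a replicate block 2 list genes were called lower and Fth1 kept its call. DKO replicate 3 alone, assumed to vary like the other libraries, gave median log2 fold changes of 0.0017 for the 9, 0.043 for the list and -0.043 over all genes. With DKO replicates 2 and 4 alone, chosen after seeing the data, 2 of the 9 were called higher and 1 lower, with medians of -0.17 for the 9 and 0.073 for the list. Over all 18749 genes tested, that fit called 1692 higher and 2015 lower. The GC and length correction, also added later, gave 1 of the 9 called lower, 7 list genes higher and a list median of -0.049. Over all 14035 genes tested, the corrected fit called 1119 higher and 1639 lower. Requiring a log2 fold change beyond 1 left 0 of the 9 higher, and 4 list genes higher and 1 lower. Leaving out 1 library gave 1 to 2 of the 9 higher (2 without WT replicate 3), 0 to 1 lower (1 without DKO replicate 3) and medians of -0.16 (without DKO replicate 1) to 0.13. In the list it gave 8 to 15 higher (8 without WT replicate 1), 2 to 9 lower (2 without WT replicate 1, 2 or 4) and medians of -0.00087 to 0.10. Calls over all genes fell alike in those fits, to 858 higher and 898 lower without WT replicate 1, 1011 and 1050 without WT replicate 2, 948 and 957 without WT replicate 4, and 1026 and 1083 with the replicate block. Without WT replicate 3 they were 1510 and 1579, and without DKO replicate 3 they were 1867 and 1995. For single genes 497 values kept their side of the threshold, 88 lost and 9 gained a call. At 36981439 or more counts per library, libraries of a genotype differed by more than counting error (chi-square per gene at least 18.9).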
